A study of Mus musculus with 19 samples.

Results

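Cell division ends with mitosis, and 60 genes of this phase were followed here in retinal microglia, the resident macrophages of the retina. The genes were chosen by symbol from a list of mitosis, kinetochore and cytokinesis genes, with earlier results of these data known. All 60 were found among the 27299 genes with values. The microglia had been sorted for bulk RNA-seq from the central retina of C57BL/6J mice aged 8 weeks, which the study's text describes as carrying 1 GFP allele at Cx3cr1 (Cx3cr1 GFP/+), a gene of microglia. The gate took CD45+CD11b+CX3CR1+ cells without Ly6C and Ly6G, and the study's text states a low CD45 level. The 6 control samples came from unlasered eyes, and the 6 samples named CNV d3 were taken 3 days after 6 argon laser burns per retina, which break the membrane under the retina and start choroidal neovascularization (CNV). Both groups carried the same genotype and were sorted alike. The model is an acute injury, so a response to the burn and a response to new vessels cannot be told apart.

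A cell enters mitosis when CDK1 with cyclin A or B is switched on and its inhibitory phosphates are removed by CDC25. Condensins and topoisomerase II then compact and untangle the chromosomes, kinetochores built on the centromeres catch microtubules, and kinesin motors shape the spindle. The spindle assembly checkpoint holds back the ubiquitin ligase APC/C until every kinetochore is attached. APC/C with CDC20 then marks securin and cyclin B for destruction, separase cuts cohesin, and the midzone and a contractile ring divide the cell. Adult microglia renew slowly in the healthy retina and are known to divide after injury.

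Many genes of this phase share promoter elements, so the bases before the start are shown for 8 of the 60 genes, 7 that increased in CNV d3, among them Gtse1 without any control read, and 1 that was not called (Espl1). Textbook elements of such promoters are the cell cycle genes homology region (CHR, searched as TTTGAA), to which the MuvB core of the DREAM and MYB-MuvB complexes binds, and the CCAAT box (searched as CCAAT), to which NF-Y binds. Each stretch holds the 120 bases before the RefSeq start (GRCm38.p6), written in the direction of the gene from 5′ to 3′, with matches on either strand in capitals, so that TTCAAA and ATTGG are matches on the other strand. Cdk1 lies at chr10:69352913-69353032 (minus strand), Top2a at chr11:99024190-99024309 (minus strand), Cdc20 at chr4:118437344-118437463 (minus strand), Ube2c at chr2:164769809-164769928 (plus strand), Kif11 at chr19:37376262-37376381 (plus strand), Ncapg at chr5:45669805-45669924 (plus strand), Gtse1 at chr15:85859587-85859706 (plus strand) and Espl1 at chr15:102296173-102296292 (plus strand).
Cdk1: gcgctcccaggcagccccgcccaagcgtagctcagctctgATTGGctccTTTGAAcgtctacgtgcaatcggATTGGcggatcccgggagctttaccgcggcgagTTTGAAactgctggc
Top2a: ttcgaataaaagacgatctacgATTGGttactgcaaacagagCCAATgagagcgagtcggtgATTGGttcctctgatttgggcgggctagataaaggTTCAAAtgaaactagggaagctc
Cdc20: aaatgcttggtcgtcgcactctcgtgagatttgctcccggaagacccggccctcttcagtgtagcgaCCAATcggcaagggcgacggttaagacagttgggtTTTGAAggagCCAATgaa
Ube2c: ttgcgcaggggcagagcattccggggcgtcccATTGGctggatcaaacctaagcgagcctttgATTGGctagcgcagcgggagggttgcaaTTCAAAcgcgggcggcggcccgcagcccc
Kif11: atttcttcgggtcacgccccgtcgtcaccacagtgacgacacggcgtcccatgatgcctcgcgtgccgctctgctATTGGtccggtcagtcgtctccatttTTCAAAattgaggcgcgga
Ncapg: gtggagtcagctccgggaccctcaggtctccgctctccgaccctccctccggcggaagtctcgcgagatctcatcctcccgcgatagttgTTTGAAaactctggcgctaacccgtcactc
Gtse1: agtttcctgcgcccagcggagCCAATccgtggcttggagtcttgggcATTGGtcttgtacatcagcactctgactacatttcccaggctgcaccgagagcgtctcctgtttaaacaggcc
Espl1: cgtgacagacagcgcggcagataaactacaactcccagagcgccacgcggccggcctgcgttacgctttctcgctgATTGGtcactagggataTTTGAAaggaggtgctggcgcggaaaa

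The Cdk1 stretch held 2 CHR and 2 CCAAT boxes, Top2a 1 CHR and 3 CCAAT boxes, and Gtse1 2 CCAAT boxes without a match to TTTGAA. The 8 genes were picked by name and not drawn at random, and all but Gtse1 held a CHR in the stretch shown. They are therefore not typical of the 60 genes in where the CHR lies. RefSeq windows from 250 bases before to 50 after the start were at hand for 51 of the 60 genes. A CHR was found in 34 of these 51 genes (66.7%), against 15.2% of 12627 protein-coding genes with windows of the same length. At least 2 CCAAT boxes stood in 25 of 51 (49.0%, against 15.7%), and both features together in 19 of 51 (37.3%, against 2.39%). Of the 24 genes of S phase, the preceding phase of DNA copying, 19 had a window, and 2 of these held a CHR (10.5%). An E2F element, the element of many S phase promoters (TTTGGCGC, TTTCCCGC, TTTGCCGC or TTTCGCGC, either strand), was found in 5 of the 51 mitosis genes (9.80%), in 8 of the 19 S phase genes (42.1%) and in 4.23% of all. The CHR matches lay near the start, since 31 genes had a match within 50 bases before or after it, and in 17 genes all matches lay after it. By the calls described below, 32 of 47 increased genes with a window held a CHR and 2 of 4 genes without a call (Bub3 and Espl1). Among the increased genes without a CHR in these windows were Gtse1, Bub1, Nek2, Ccnb1, Cenpe, Cenpk, Cenpm, Sgo1 and Sgo2a. Ttk, like Gtse1 without any control read, held a CHR. A match is a match of letters, and binding was not measured.

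**Figure D1:**
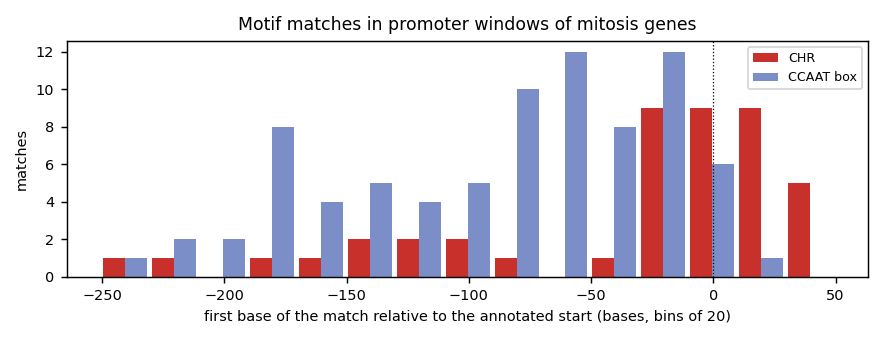
The bars count matches to the CHR (red) and the CCAAT box (blue) in bins of 20 bases, by distance of the first base from the annotated start. For each gene with a match to either element a single window was counted, the matching window with the lowest chromosome position. The 4 bins from -30 to 49 hold 9, 9, 9 and 5 CHR matches, and the CCAAT boxes peak before the start with 12 matches in the bin from -70 to -51 and 12 in the bin from -30 to -11.

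Sequencing gave 10963178 to 22335233 reads on genes in controls and 23532260 to 29523018 in CNV d3, and the values below are normalized counts, which are reads divided by the DESeq2 size factor of the sample. As fold changes, differences of log2(normalized counts + 1) are given with their standard error, and the adjusted p comes from limma over all 27299 genes. Calls of an increase or decrease needed a log2 fold change beyond 1.5 in either direction together with an adjusted p under 0.05. Lymphocyte, neutrophil and erythroid genes had sums of at most 30.4 normalized counts in every sample. The 10 microglia genes summed to 1354511 to 1524984 in controls and 754090 to 1135277 in CNV d3, and of these P2ry12 decreased. Of 10 monocyte genes 6 increased by limma (Ccr2, Ly6c2, Plac8, S100a4, Fn1, Ms4a4c) and 4 by edgeR, and the list summed to 231 to 1060 in controls and 5030 to 51943 in CNV d3. Most of this sum was fibronectin (Fn1), with 3763 to 47390 in CNV d3. Ly6c2, whose product the gate excluded, was at 0 reads in all controls and at 1.73 to 25.1 in CNV d3, and Chil3 was at 0 in all controls and at most 14.1 in CNV d3. Of 7 dendritic cell genes 3 increased by limma (Flt3, Cd209a, Xcr1) and 1 by edgeR (Flt3), with list sums of 836 to 1734 in controls and 1819 to 4051 in CNV d3, and of 8 Mueller glia and astrocyte genes 2 (Vim and Apoe; 19605 to 41342 and 59448 to 102311). Genes of photoreceptors, endothelium and retinal pigment epithelium were not called by limma (edgeR and DESeq2 each called 1 photoreceptor gene), with list sums of at most 6911, 990 and 1053 in controls and 12461, 962 and 939 in CNV d3. Of the genes on these lists, Fn1 and Apoe are reported by the study as increased in CNV-associated microglia. In bulk RNA a larger share of dividing cells and more RNA per cell cannot be told apart.

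Of the 60 mitosis genes 56 increased in CNV d3 and 0 decreased. Among all genes tested 3.91% increased and 1.07% decreased. Since the 60 genes were chosen with earlier results of these data known, the comparison with all genes is a description and no test. The median log2 fold change of the 60 genes was 5.63, against 0.15 for all genes. Calls on recovered reads were 55 by edgeR (3.35% of the 12852 genes it tested) and 51 by DESeq2 (5.28% of 17186), with 50 genes called by all 3 tools. The edgeR median was 4.0 for the 60 genes and -0.01 for the 12852 genes it tested. For the 60 genes the size of the median change thus depended on the tool while its direction did not. In genes with some controls at 0 reads the limma value was often larger, as for Top2a (7.81 against 5.20 by edgeR) and Mki67 (7.37 against 5.30). For Ttk and Gtse1, at 0 in all controls, edgeR gave the larger value. Sizes by limma are therefore not comparable between genes with and without zeros. In 55 genes every CNV d3 value was above every control value (4.64% of all genes). A two-sided exact permutation test of 6 against 6 samples must then give its smallest p (0.00216), so it adds nothing to this separation. The 4 genes without a call were Bub3, Plk4, Espl1 and Pttg1. Nothing in the labels says that the samples came from separate mice, so the p-values describe the spread between these samples, which may be technical in part.

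**Figure D2:**
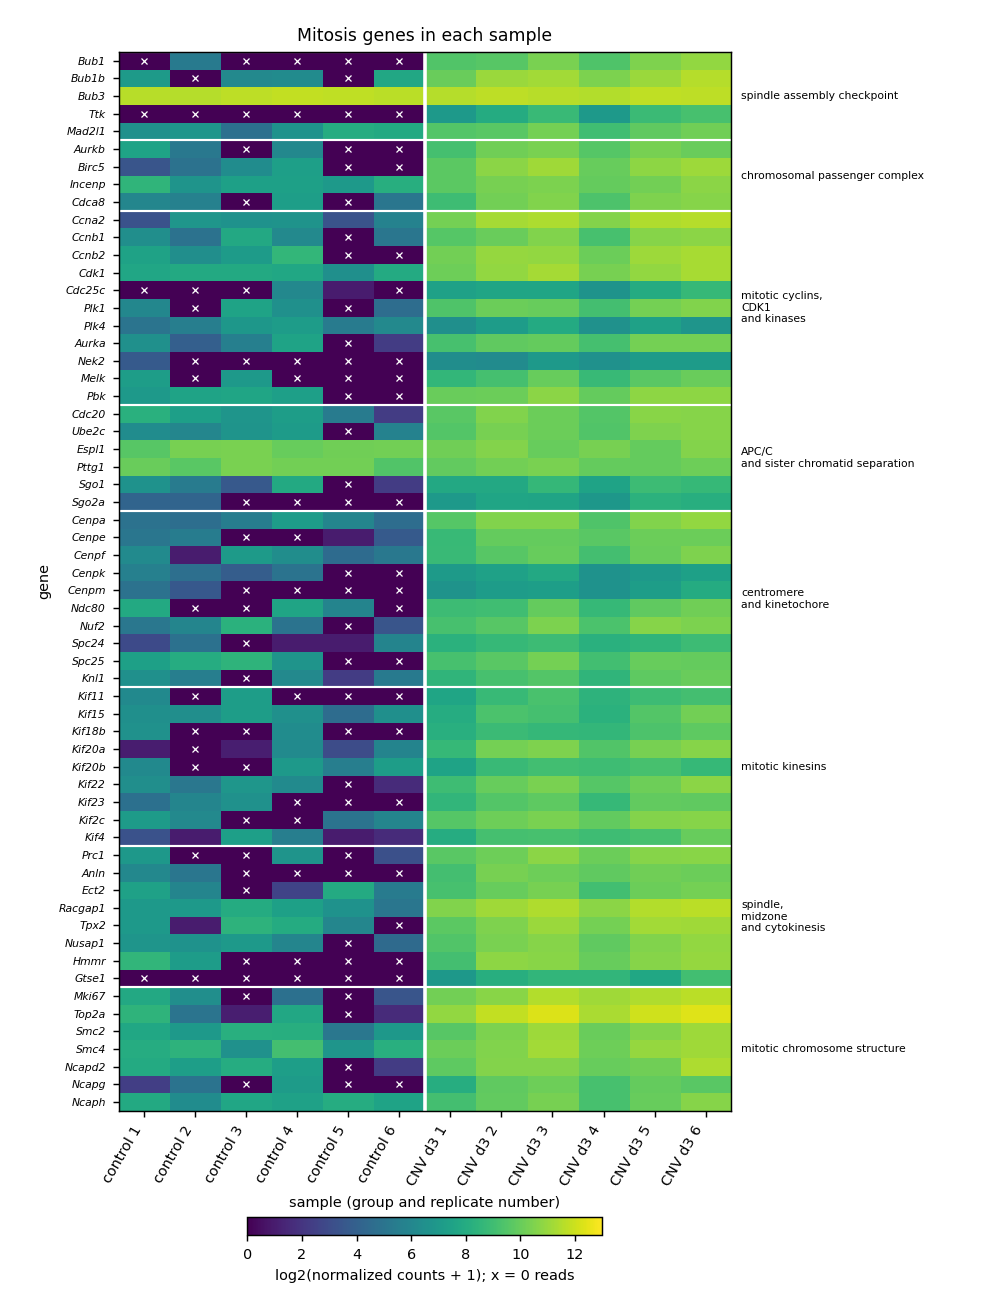
Each row is a gene, grouped by role, and each column a sample, with the colour giving log2(normalized counts + 1) and a white x marking 0 reads. The 6 CNV d3 columns hold no value at 0, while 107 of the 360 control values are at 0, and Bub3, Espl1 and Pttg1 look alike in both groups.

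Of the 5 spindle assembly checkpoint genes 4 increased. BubR1 (Bub1b), which binds CDC20 in the complex that inhibits APC/C, ranged from 0 to 220 in controls (median 71.3) and from 1056 to 3028 in CNV d3 (median 2108). This was a log2 fold change of 6.36 ± 1.22 (limma adjusted p = 0.00290). Bub1, a kinase that marks the centromere, was at 0 in 5 controls and at 39.5 in control replicate 2, and at 683 to 1892 in CNV d3 (median 1071). Its log2 fold change of 9.16 ± 0.84 was the largest of the 60 genes by limma (adjusted p = 1.32e-05). MPS1 (Ttk), the kinase that starts checkpoint signaling, had 0 reads in all controls and 125 to 590 normalized counts in CNV d3. Mad2l1, which encodes the MAD2 protein of the inhibitory complex, rose from 27.0 to 261 in controls (median 105) to 518 to 1266 (median 871), a log2 fold change of 2.97 ± 0.45 (limma adjusted p = 0.000484). Bub3, the adaptor that brings BUB1 and BUBR1 to kinetochores, was at 3050 to 3589 in controls (median 3247) and 2874 to 3454 in CNV d3 (median 3182). The Bub3 ranges overlapped, and the log2 fold change was -0.04 ± 0.08 (limma adjusted p = 0.737). Bub3 therefore had the highest control level of the checkpoint genes and was the only one of the 5 without a call.

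All 4 genes of the chromosomal passenger complex, which corrects faulty attachments and later marks the midzone, increased. Survivin (Birc5) was at 0 to 163 in controls (median 19.0) and 832 to 2256 in CNV d3 (median 1752), with a log2 fold change of 6.92 ± 1.09 (limma adjusted p = 0.000700). Incenp, the scaffold, had reads in every control, from 103 to 364 (median 167), and rose to 844 to 1727 (median 1259). Its log2 fold change was 2.71 ± 0.29 (limma adjusted p = 4.09e-05). Borealin (Cdca8) was at 0 to 156 in controls (median 42.7) and 505 to 1582 in CNV d3 (median 1301), a change of 6.02 ± 1.12 on the log2 scale (limma adjusted p = 0.00226). The kinase Aurkb itself was at 0 in 3 controls, reached 183 in control replicate 1, and lay between 570 and 1339 in CNV d3. No control value of these 4 genes reached the lowest CNV d3 value of the same gene.

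Of the 11 genes for mitotic cyclins, CDK1 and kinases 10 increased, and Plk4 was not called. Cyclin A2 (Ccna2) was at 8.59 to 111 in controls (median 75.2) and 1245 to 3003 in CNV d3 (median 2540), with a log2 fold change of 5.67 ± 0.61 (limma adjusted p = 4.23e-05). Cdk1, the kinase that drives mitotic entry, had reads in all controls, from 88.3 to 244 (median 226), and 1139 to 2524 in CNV d3 (median 1924). The Cdk1 change of 3.19 ± 0.27 had the smallest standard error of the 56 called genes (limma adjusted p = 8.12e-06), and edgeR gave 3.20. Cyclin B2 (Ccnb2) was at 0 in control replicates 5 and 6 and reached 395 in another control (median 113), against 1092 to 2510 in CNV d3 (median 1910). Its log2 fold change was 5.80 ± 1.33 (limma adjusted p = 0.00912). The mitotic kinases Plk1 (log2 fold change 5.79 ± 1.15) and Aurka (5.47 ± 0.99) and cyclin B1 (Ccnb1, 5.05 ± 0.95) moved by similar amounts. Cdc25c, which encodes a CDK1-activating phosphatase, was at 0 in 4 controls, at 1.00 in control replicate 5 and at 66.0 in control replicate 4, against 102 to 417 in CNV d3. Nek2, a kinase of centrosome separation, was at 0 in 5 controls and at 11.8 in the other, against 76.1 to 141 in CNV d3, the lowest CNV d3 mean of the 60 genes. Melk, a kinase of cycling progenitors, was at 0 in 4 controls and at most 149, against 393 to 1028 in CNV d3. Pbk, a mitotic kinase that CDK1 activates, was at 0 in control replicates 5 and 6 and at most 200, against 961 to 1763. Plk4, the kinase that starts centriole duplication before mitosis, was at 31.1 to 143 in controls (median 58.0) and 87.9 to 246 in CNV d3 (median 126). These ranges overlapped, and the log2 fold change was 1.03 ± 0.42 (limma adjusted p = 0.137).

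Among the 6 genes of APC/C action and sister chromatid separation, the activators increased and the securin and separase genes were not called. Cdc20, the activator of APC/C, was at 3.97 to 304 in controls (median 131) and 722 to 1636 in CNV d3 (median 1281), a log2 fold change of 3.96 ± 0.75 (limma adjusted p = 0.00260). The ubiquitin-conjugating enzyme of APC/C (Ube2c) was at 0 to 141 in controls (median 69.6) and 703 to 1587 in CNV d3 (median 1174), a change of 4.77 ± 0.92 (limma adjusted p = 0.00297). Separase (Espl1), the protease that cuts cohesin, was at 782 to 1319 in controls (median 1182) and 969 to 1555 in CNV d3 (median 1237). Its log2 fold change was 0.16 ± 0.16 (limma adjusted p = 0.572). Securin (Pttg1), the inhibitor of separase, was at 707 to 1316 in controls (median 1126) and 947 to 1357 in CNV d3 (median 1033), a log2 fold change of 0.08 ± 0.17 (limma adjusted p = 0.759). For both genes the groups overlapped. Their control means were 1127 and 1047, against at most 276 (Smc4) for any called gene. The shugoshins, which protect centromeric cohesin, were lower. Sgo2a was at 0 in 4 controls and at most 17.2, against 116 to 322 in CNV d3. Sgo1 was at 0 to 237 in controls (median 26.4) and 187 to 481 in CNV d3 (median 320), so its groups overlapped, and its call (3.94 ± 1.04, limma adjusted p = 0.0199) was not made by edgeR (adjusted p = 0.0726).

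**Figure D3:**
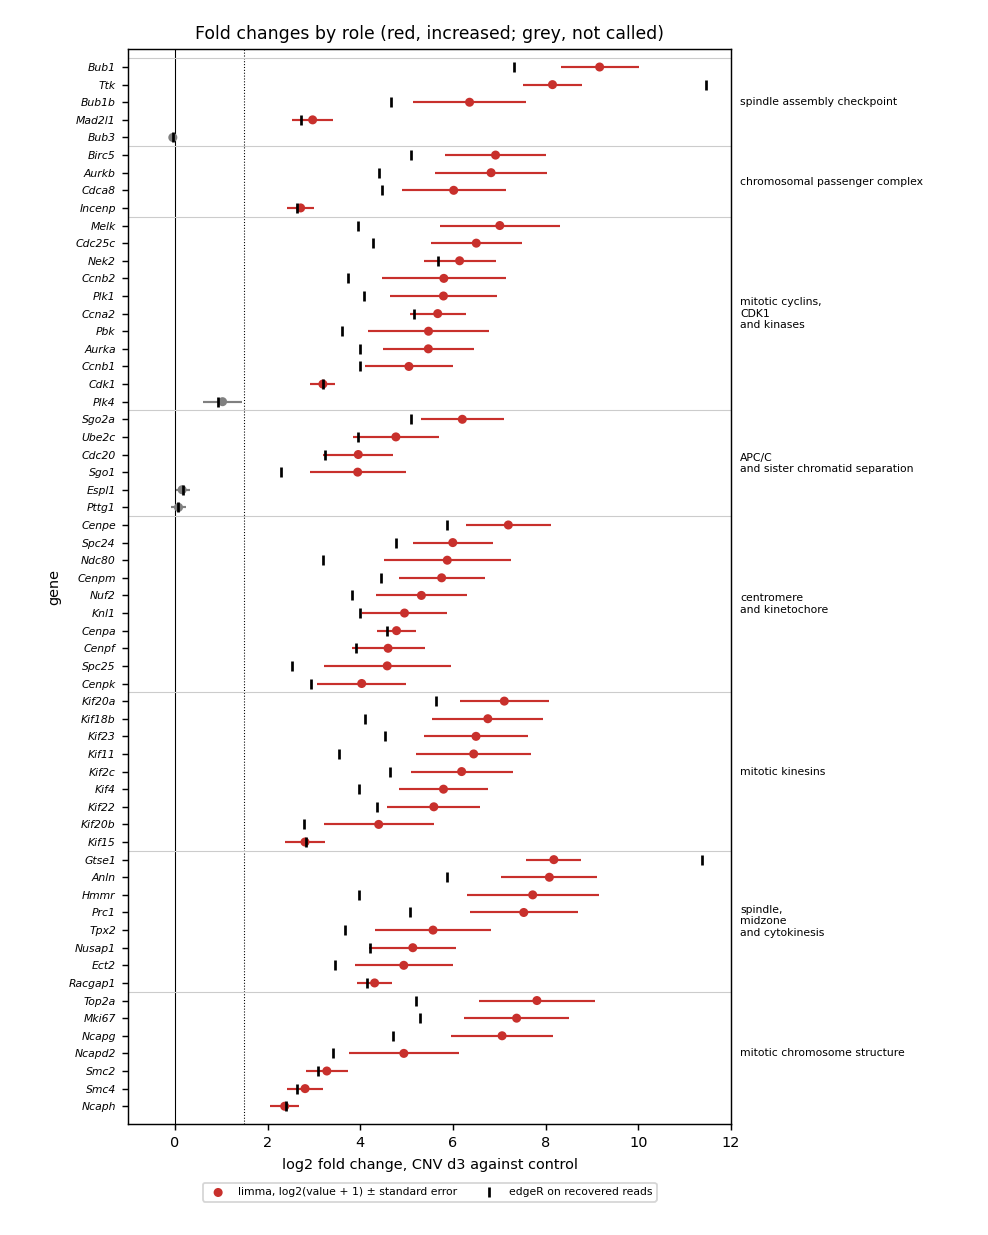
Points give the log2 fold change of CNV d3 against control by limma with bars of 1 standard error, ordered by size within each role, and ticks give the edgeR estimate on recovered reads. All red points lie right of the dotted line at 1.5, the 4 grey points of genes without a call lie left of it, and the edgeR values of Ttk and Gtse1, which had 0 control reads, depend on the prior count.

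All 10 centromere and kinetochore genes increased. Cenpa, the histone that marks the centromere, was at 23.8 to 143 in controls (median 37.0) and 689 to 1923 in CNV d3 (median 1491). Its log2 fold change was 4.78 ± 0.41 (limma adjusted p = 8.51e-06). Nuf2, a subunit of the NDC80 complex that grips microtubules, was at 0 to 314 in controls (median 32.4) and 587 to 1583 in CNV d3 (median 1091), a change of 5.32 ± 0.97 (limma adjusted p = 0.00203). The kinetochore motor Cenpe was at 0 to 43.5 in controls (median 6.46) and 433 to 1087 in CNV d3 (median 978), a change of 7.19 ± 0.91 (limma adjusted p = 0.000144). The other 3 subunits of the NDC80 complex differed in how firmly they were called. Spc24 changed by 6.00 ± 0.87 on the log2 scale (limma adjusted p = 0.000391), Ndc80 by 5.88 ± 1.37 (limma adjusted p = 0.0101) and Spc25 by 4.58 ± 1.37 (limma adjusted p = 0.0386). Spc25 was at 0 in control replicates 5 and 6 but at 352 in control replicate 3, against 526 to 1252 in CNV d3. Its call held in 1 of the 12 fits that left out 1 sample. DESeq2 did not call Ndc80 and Spc25. Knl1, the scaffold to which the checkpoint proteins bind, was at 0 to 90.2 in controls (median 42.6) and 362 to 1048 in CNV d3 (median 663). Cenpf, a large protein of the outer kinetochore, was at 1.01 to 135 and 448 to 1439. The inner kinetochore genes Cenpk and Cenpm had lower levels, with 98.7 to 232 and 97.8 to 256 in CNV d3, against at most 49.4 and 29.0 in controls.

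All 9 mitotic kinesins increased. Kif2c, a microtubule depolymerase at centromeres, was at 0 to 140 in controls (median 44.8) and 751 to 1614 in CNV d3 (median 1235), a log2 fold change of 6.19 ± 1.10 (limma adjusted p = 0.00169). Kif20a, a motor of the midzone, was at 0 to 74.1 in controls (median 4.08) and 420 to 1617 in CNV d3 (median 1254), a change of 7.11 ± 0.96 (limma adjusted p = 0.000232). Kif22, which pushes chromosome arms outward, was at 0 to 111 in controls (median 54.3) and 500 to 1695 in CNV d3 (median 1049), a change of 5.59 ± 1.01 (limma adjusted p = 0.00182). The remaining 6 were Kif11, Kif15, Kif18b, Kif20b, Kif23 and Kif4, with log2 fold changes from 2.81 (Kif15) to 6.75 (Kif18b). Kif15 was the kinesin with the highest control minimum, at 23.1 to 151 in controls. Kif11, the motor that separates the spindle poles, was at 0 in 4 controls and at 197 to 614 in CNV d3, and it was called by limma and edgeR but not by DESeq2 (adjusted p = 0.0865). Kif23, which forms centralspindlin with RACGAP1, was at 0 in 3 controls and at most 93.5, against 379 to 932 in CNV d3. Kif4, a chromosome motor that also shapes the midzone, was at 1.00 to 162 in controls (median 5.29) and 259 to 993 in CNV d3. Kif20b was called in 3 of the 12 fits that left out 1 sample.

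All 8 genes of spindle, midzone and cytokinesis increased. Racgap1, part of the centralspindlin complex of the midzone, had reads in all controls, from 33.8 to 251 (median 128), and 1464 to 3250 in CNV d3 (median 2515). Its log2 fold change was 4.31 ± 0.38 (limma adjusted p = 8.95e-06). Tpx2, which activates Aurora A on the spindle, was at 0 to 340 in controls (median 95.6) and 842 to 2310 in CNV d3 (median 1768), a change of 5.57 ± 1.25 (limma adjusted p = 0.00815). Hmmr, a spindle protein that is also known as a hyaluronan receptor, was at 0 in 4 controls and at 382 and 146 in control replicates 1 and 2, against 545 to 1949 in CNV d3 (median 1623). Limma gave 7.72 ± 1.42 (adjusted p = 0.00211) and edgeR 3.98 (adjusted p = 0.0176), while DESeq2 gave an adjusted p of 0.0769. Anillin (Anln), the scaffold of the contractile ring, was at 0 in 4 controls and at most 65.5, against 545 to 1293 in CNV d3. The midzone bundler Prc1 was at 0 to 119 in controls and 804 to 1731 in CNV d3, and the guanine exchange factor Ect2, which activates RhoA for the ring, at 0 to 243 and 535 to 1297. Nusap1, which bundles spindle microtubules, was at 0 to 129 in controls and 704 to 1869 in CNV d3.

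The 7 genes of mitotic chromosome structure all increased. Top2a, the topoisomerase that untangles sister chromatids, was at 0 to 349 in controls (median 16.7) and 1926 to 5307 in CNV d3 (median 3907), a log2 fold change of 7.81 ± 1.24 (limma adjusted p = 0.000745). Top2a had the highest CNV d3 mean of the 60 genes, at 3787 ± 1349 (SD, n = 6). Mki67, whose product Ki-67 coats mitotic chromosomes and serves as a stain for cycling cells, was at 0 to 229 in controls (median 18.2) and 1219 to 3232 in CNV d3 (median 2552). The Mki67 change was 7.37 ± 1.13 (limma adjusted p = 0.000557). The condensin subunit Smc4 had reads in all controls, from 93.5 to 553 (median 281), and 1087 to 2317 in CNV d3 (median 1730), a change of 2.81 ± 0.39 (limma adjusted p = 0.000260). Its partner Smc2 changed by 3.28 ± 0.45, and the condensin I subunits Ncaph, Ncapd2 and Ncapg by 2.37 ± 0.32, 4.94 ± 1.19 and 7.06 ± 1.10. By edgeR these condensin I subunits changed by 2.39, 3.40 and 4.71. The Ncaph change was the smallest of the 56 called genes by limma, while by edgeR Sgo1 was smaller (2.30 against 2.39). Per kilobase of exon the order differed, and cyclin B2 led with 1176 normalized counts per kb in CNV d3, followed by Pbk with 778 and Cdc20 with 653.

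Reads of these genes were uneven between controls. Of the 60 genes 2 had 0 reads in all 6 controls (Ttk and Gtse1), 2 had reads in 1 control (Bub1 and Nek2), 8 were at 0 in exactly 4 controls, 31 in 1 to 3, and 17 had reads in every control. Among all genes 16.8% had 0 reads in all controls. Gtse1, a microtubule-associated protein that binds p53, had 123 to 532 normalized counts in CNV d3 (median 330). Against the floor of 3 reads in the shallowest control (5.96 normalized counts), the CNV d3 mean was at least 56.2-fold higher for Ttk and at least 53.5-fold higher for Gtse1. Their calls had adjusted p = 4.25e-06 for Ttk and 3.02e-06 for Gtse1 by limma. Of the 360 control values 107 were at 0 and 114 at 100 or more, and 28 genes had both in the same group. Control replicates 1 to 6 held 4, 13, 22, 13, 33 and 22 of the 60 genes at 0. Of all 27299 genes, the same replicates had reads in 16468, 17224, 15280, 15076, 15215 and 15204, so zeros were common among all genes too. Of the 60 genes the most at 0 were in replicate 5, the deepest control at 22335233 reads, and the shallowest, replicate 6 at 10963178 reads, held 22. The part of depth in the zeros was not tested. Libraries had been amplified by PCR from picogram amounts of RNA, and the part of this step in the zeros was not tested. Reads carried no molecular identifiers, so floors cover counting error only.

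**Figure D4:**
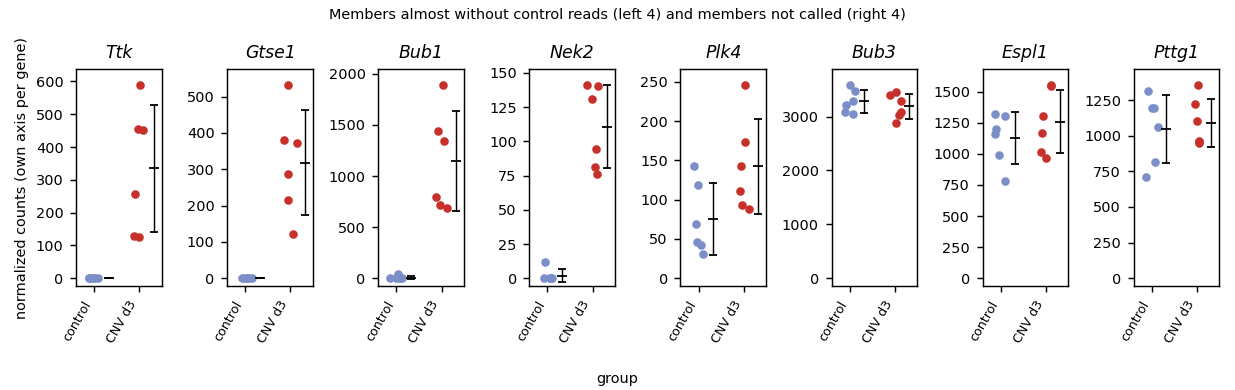
Each panel plots normalized counts of a gene in the 6 control (blue) and 6 CNV d3 (red) samples, with the mean and SD beside the points and an axis of its own. Ttk and Gtse1 lie at 0 in every control and Bub1 and Nek2 in 5 of 6, while Plk4, Bub3, Espl1 and Pttg1 overlap between the groups.

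Summed over the 60 genes, control replicates 1 to 6 had 11220, 8584, 10975, 11742, 7459 and 7650 normalized counts, and CNV d3 replicates 1 to 6 had 39677, 65391, 79401, 46653, 76787 and 90751. The lowest CNV d3 sum was 3.38 times the highest control sum. Within CNV d3 the genes moved together by sample. Replicate 6 was the highest in 36 of the 56 called genes, replicate 3 in 11 and replicate 5 in 8, while replicate 1 was the lowest in 36 and replicate 4 in 19. The coefficient of variation among CNV d3 samples had a median of 35.5% for the called genes (20.2 to 57.5%), against 16.2% for 9684 genes with a CNV d3 mean of at least 100. The 24 S phase genes spread less between CNV d3 samples, from 24761 to 42532 in sum. Mitosis over S phase sums were 0.945 to 1.47 in controls and 1.60, 2.17, 1.87, 1.70, 2.68 and 2.41 in CNV d3 replicates 1 to 6, so that every CNV d3 ratio was above every control ratio. The mitosis sums in these ratios include the genes without a call, which made up a larger part of them in controls. Replicates 5 and 6 had the highest ratios, and replicate 3, which led in S phase genes, did not.

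Monocyte genes also differed between CNV d3 samples, with sums of 5030, 18913, 51943, 5604, 12726 and 37504 in replicates 1 to 6. Most of this was Fn1, which the study reports among the top genes increased in CNV-associated microglia. The sums therefore cannot be read as a measure of monocytes alone. The replicates lowest in mitosis genes (1 and 4) were lowest in monocyte genes. Replicate 5 was high in mitosis genes at 76787, and at 12726 in monocyte genes it was above replicates 1 and 4 only. Without replicates 3 and 6, the CNV d3 samples highest in monocyte genes, limma called 30 of the 60 genes (553 genes in all, against 1068 with every sample) and edgeR 45 (274 genes in all). All 56 called genes kept their direction without these 2 samples, with a median log2 fold change of 5.41 for the 60 genes by limma and 3.80 by edgeR. CNV d3 replicates 1 and 4, the lowest in monocyte genes among CNV d3, had mitosis sums of 39677 and 46653, above all controls. Their monocyte sums of 5030 and 5604 were also above all controls, which reached at most 1060. The part of monocyte genes in the result, and which of the sorted cells carried the reads, was not tested.

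**Figure D5:**
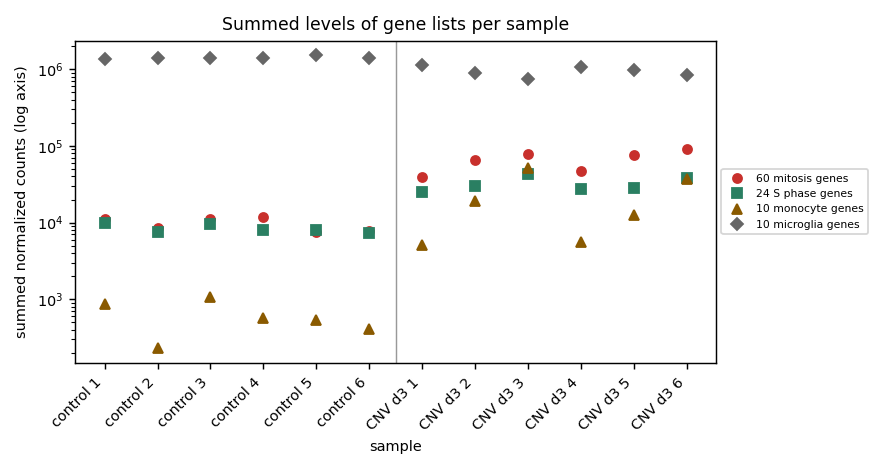
For each sample the points give summed normalized counts of the 60 mitosis genes (red circles), 24 S phase genes (green squares), 10 monocyte genes (brown triangles) and 10 microglia genes (grey diamonds), on a log axis. Mitosis sums of CNV d3 (39677 to 90751) lie above those of controls (7459 to 11742), and monocyte sums vary most between CNV d3 samples.

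Genes around the 60 were followed on lists of 113 other mitosis genes and the 24 S phase genes, of which 49 and 18 increased and 0 decreased by limma. By edgeR 44 and 16 increased, and by DESeq2 43 and 16. The calls were unevenly spread over these lists. On the list of 16 APC/C genes 1 was called by limma, Fbxo5, which is no subunit but encodes the APC/C inhibitor EMI1 (0 to 195 in controls and 319 to 586 in CNV d3, log2 fold change 3.33 ± 0.96, limma adjusted p = 0.0327). The abundant subunit Anapc5 was at 2165 to 3201 in controls and 4496 to 7513 in CNV d3, under the threshold of 1.5 with a log2 fold change of 1.15 ± 0.14. Of 15 cohesin and condensin II genes 3 increased by limma, 2 by edgeR and 1 by DESeq2. They were by limma sororin (Cdca5, 6.49 ± 1.24), the acetyltransferase Esco2 (6.86 ± 1.02) and Ncapg2 (4.94 ± 1.22, not called by edgeR), while the cohesin subunit Stag2 was at 1983 to 3947 in controls and 2076 to 3192 in CNV d3. Of 29 other kinetochore and centromere genes 17 increased, and of 36 other spindle and cytokinesis genes 19. Neither Zwint, a partner of KNL1 (1119 to 1603 and 1450 to 1758), nor Mis12 (675 to 1472 and 985 to 1459) was called.

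Of 17 other entry and exit regulators 9 increased, among them cyclin F (Ccnf, 71.0 to 207 in controls and 570 to 1615 in CNV d3, 3.0 ± 0.32, limma adjusted p = 3.81e-05), while Ensa and Arpp19, substrates of the kinase MASTL, were not called. Of the 12 genes of the DREAM and MYB-MuvB complexes and FOXM1, 3 increased. B-Myb (Mybl2) was at 0 to 37.6 in controls (median 0) and 79.6 to 222 in CNV d3, with a log2 fold change of 6.32 ± 0.92 (limma adjusted p = 0.000408). Foxm1, an activator of mitosis genes, was at 0 to 225 in controls (median 0) and 414 to 1029 in CNV d3, a change of 6.86 ± 1.31 (limma adjusted p = 0.00267). Tfdp1, the partner of E2F factors, rose from 309 to 563 in controls to 1232 to 2030, a change of 1.64 ± 0.18 (limma adjusted p = 4.69e-05). Of the S phase genes 18 of 24 increased, with a median log2 fold change over the list of 2.33. Mcm6 of the replicative helicase was at 234 to 1627 in controls and 3241 to 6883 in CNV d3 (2.73 ± 0.38, limma adjusted p = 0.000316), and Rrm1, a subunit of ribonucleotide reductase, at 451 to 1295 and 2497 to 4358 (2.13 ± 0.22, limma adjusted p = 3.44e-05). Without CNV d3 replicates 3 and 6, 34 of these 137 genes were called by limma and 33 by edgeR, against 67 and 60 with all samples.

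Some of the genes share sequence or exons with others. Exons of 17 of the 60 genes overlap another gene, among them Kif20a with Cdc23, Ccna2 with Exosc9, Ube2c with Tnnc2, Prc1 with Rccd1, Ncapg with Lcorl and Kif4 with Pdzd11. Reads in such stretches, if assigned to both genes, were not counted, and the counting used no strand. Cyclin B1 and B2 have pseudogenes, and reads that match both were left out, so their levels are uncertain.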

How the data were processed

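Bulk RNA-seq of sorted retinal microglia covered 6 control and 6 CNV d3 samples. The authors made cDNA with SMARTer v4, sequenced single reads, mapped them with STAR 2.7.2b to the mouse genome with Gencode M25, counted reads per gene with featureCounts 1.6.4 at default parameters, and divided by DESeq2 1.22.2 size factors. The deposited signal is therefore a normalized count, with genes at 0 in all samples removed. The deposited group means were used only for a check, and the deposited log2 fold changes and p-values of the authors (of their own comparison) were not used. Of 19 listed samples 7 were second parts of a sample and were counted once. The study's methods give an age of 8 weeks for the sequenced mice, as the labels do. A scheme with another age describes reporter mice used for staining. Groups came from the labels.

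All values of a sample were whole multiples of 1 read (100% within 0.0001), and reads were recovered from them. The design had foreseen counts or normalized values, and for the latter limma 3.58.1 in R 4.3.3 with trend on log2(normalized counts + 1), without further filter, and Benjamini-Hochberg adjustment over 27299 genes. Alternatives were edgeR 4.0.16 (quasi-likelihood, TMM), DESeq2 1.42.0, voom, TMM factors, pseudocounts of 0.5 and 5, a filter of 10 in 6 samples, thinning to 10963178 reads, other thresholds, the replicate number as a block and leaving out each sample. All tools were tested on simulated data. The 60 genes and all lists were chosen with earlier results of these data known. In each role group, the 3 genes with the highest CNV d3 mean and those without a call were named. Some further genes of a role group were chosen after their values were seen. Exon overlaps came from Gencode M21, which matched 27238 genes. Promoter windows came from RefSeq (GRCm38.p6) by symbol.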

Additional observations from a re-analysis of the deposited data

Results flagged for a closer look

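For each of the 60 genes and both groups (120 sets of 6 samples, 118 of them with reads), the gap of the highest or lowest sample to its neighbour, divided by the range of log2(normalized counts + 1), was set against Dixon's 95% critical value for 6 samples. It was exceeded in 10 of the 118 sets (8.47%). Chance gives about 1 in 20 for normally spread values without ties, and this rate does not apply to the many control sets with zeros. In Bub1 and Nek2 5 controls were tied at 0, and in Cdc25c 4. In Bub1 (ratio 1.00) and Nek2 (1.00) 1 control had reads, 39.5 normalized counts in replicate 2 and 11.8 in replicate 1. Cdc25c (0.835) was high in control replicate 4, at 66.0. Control replicate 5 was the low sample for Cdk1 (0.827, at 88.3), Ube2c (0.807, at 0), Kif15 (0.685, at 23.1) and Nusap1 (0.642, at 0), and control replicate 2 for Ncaph (0.632, at 80.0). CNV d3 replicate 1 was the low sample for Cenpe (0.672, at 433) and Kif20b (0.707, at 185). Replicate 5 was also the control with the most of the 60 genes at 0 (33).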

How the results depend on the processing

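The number of genes that increased was 49 to 55 when 1 sample was left out, against 56, and the number that decreased was 0 in each of these fits. Fits without 1 sample gave 2 to 3 genes at 0 in all controls, 55 to 56 genes whose groups did not overlap, and 50 to 65 of the 137 other mitosis and S phase genes increased. In the 12 fits 49 of the 56 called genes stayed called in all, and 7 did not. Spc25 lost its call in 11 fits (limma adjusted p 0.0600 to 0.130), and Kif20b and Sgo1 in 9 each (up to 0.0908 and 0.0826). Ncapd2 and Pbk lost theirs without CNV d3 replicate 2, 3, 5 or 6 (up to 0.0663 and 0.0603), Ndc80 without control replicate 2 or CNV d3 replicate 3, 5 or 6 (up to 0.0559), and Ccnb2 without CNV d3 replicate 6 (0.0529). Alternatives chosen after seeing the data left out CNV d3 replicates 3 and 6. By limma 30 of the 60 genes and 34 of the 137 were then called, and by edgeR 45 and 33; fewer samples enter these fits, and any other cause was not tested. The log2 fold change of Pttg1, which was not called, was -0.0261 to 0.153 when 1 sample was left out (negative without control replicate 6), and -0.00879 by limma and -0.0299 by edgeR without CNV d3 replicates 3 and 6. DESeq2 did not call Melk, Ndc80, Spc25, Kif11 and Hmmr, edgeR not Sgo1, and thinning not Spc25 and Kif20b. At an adjusted p threshold of 0.01, 7 genes were no longer called (Pbk, Sgo1, Cenpk, Ndc80, Spc25, Kif20b and Ncapd2). No call changed with TMM factors, voom, the other pseudocounts, the filter or a log2 fold change threshold of 1. The replicate numbers did not pair the samples, since deviations of same-numbered samples had correlations of -0.01 to 0.05 over 13614 genes and 1 of 6 samples matched its own number best. With the replicate block 56 genes increased.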
